A study of Mus musculus with 6 samples.

Results

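The nuclear genes for the subunits of respiratory complexes II, III, IV and V and for cytochrome c were examined in C2C12 myotubes, the fused muscle cells formed in culture by a mouse myoblast line. Members were taken from the deposited gene table by name (Sdha to Sdhd, names starting Uqcr, Cyc1, Cycs, names starting Cox4 to Cox8, and names starting Atp5, without pseudogenes). Of 51 rows with such names, 45 reached at least 10 normalized counts in 3 or more of the 6 libraries, among 16645 genes tested and 55356 listed. They comprised 4 genes of complex II, 9 of complex III, 1 for cytochrome c, 14 of complex IV and 17 of complex V. The study compared 3 libraries from myotubes exposed to 20 µM sorafenib, an anticancer inhibitor of several protein kinases, for 24 h with 3 libraries from myotubes in 0.1% DMSO for 24 h, and asked how the drug alters gene expression in muscle cells. All 6 libraries came from the same cell line, and each group's 3 libraries came from independent experiments according to the series.

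The respiratory chain of the mitochondrial inner membrane passes electrons from succinate (through complex II) and NADH (through complex I) by way of ubiquinone to complex III, from there by the small soluble protein cytochrome c to complex IV, and on to oxygen. Complexes III and IV pump protons, and complex V, the ATP synthase, uses the resulting gradient to make ATP. Complex II is encoded wholly in the nucleus, whereas complexes III, IV and V each join nuclear subunits to a few made from mitochondrial DNA. In striated muscle and heart, several small subunits of complex IV are made from separate muscle genes, among them Cox6a2, Cox7a1 and Cox8b, in place of the widely expressed Cox6a1, Cox7a2 and Cox8a.

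The values are counts scaled between libraries by the authors with DESeq2, called normalized counts here. The 3 DMSO libraries held 77972419 to 78898086 of them and the 3 sorafenib libraries 70211431 to 70598400, and the value of a single read put the depth at about 65.5 M to 80.2 M reads. Replicates correlated across genes at 0.991 to 0.993 and libraries of different groups at 0.919 to 0.929 on the log2 scale, and no library stood apart from its group. All 10 myotube markers examined were detected and lower in sorafenib, their sum ranging over 1861145 to 2021889 normalized counts in the DMSO libraries against 505075 to 606709 in the treated ones. For unfused myoblasts, 6 markers of 9 tested were lower and 3 higher, with sums of 191881 to 196211 against 106872 to 111744. Itga7 made up most of that sum, at a mean of 136486 in DMSO and 67992 in sorafenib. The 3 higher markers were Myf5, an early myogenic factor, from 933 ± 45.2 to 17590.1 ± 132 normalized counts (SD, n = 3 each, 4.24 on the log2 scale), Hey1 (0.47) and Vcam1 (0.42), and Pax3 was below the minimum. Of 6 proliferation markers, 3 were lower, 2 higher and 1 (Cdk1) did not pass. Mki67 (−1.53, from a DMSO mean of 6092), Top2a (−0.86, from 6440) and Ccnb1 (−0.70) were lower on the log2 scale. Mcm2 (1.20) and Pcna (0.33) were higher. For fibroblasts, 4 of 4 tested were lower, with sums of 62381 to 69869 against 14265 to 16927, Lum and Thy1 being below the minimum. Col1a1 made up most of that sum, at a mean of 61374.5 in DMSO and 11383 in sorafenib. Dcn fell 1.25-fold, Pdgfra 1.31-fold and Dpt, from a DMSO mean of 37.8, 20.6-fold. Macrophage markers (1 of 3 lower, 2 higher) summed to 371 to 408 against 985 to 1144. The 2 higher were Cd14, at a mean of 278 in DMSO and 643 in sorafenib, and Cd68, at 45.5 and 386. Itgam was lower, Adgre1 was at 0 in every library, and Ptprc and Csf1r were also below the minimum. Endothelial markers (2 of 3 lower) summed to 126 to 172 against 94.9 to 130.3, with Pecam1 and Kdr below the minimum. The part of these cell types in the results that follow was not tested. All libraries came from the C2C12 line, so the fibroblast, macrophage and endothelial lists describe marker genes and not counts of such cells. For myotubes and unfused myoblasts, a lower level in bulk RNA cannot be told apart between fewer cells and less RNA per cell.

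Most members were lower in sorafenib. Of the 45, 42 passed the test, 38 of them as lower and 4 as higher, and 3 did not. The test was limma on log2(normalized count + 1) with a Benjamini-Hochberg adjusted p under 0.05 over all genes tested. Across all 16645 genes 76.6% passed, 37.8% as lower and 38.8% as higher. The median log2 change of the members was −0.52, a fall of 1.44-fold, beside a median of 0.02 over all genes tested. The 3 sorafenib libraries all lay below the 3 DMSO libraries for 38 members and all above them for 4, while the groups overlapped for 3. Such separation was common in the whole table, at 79.5% of genes, 39.4% below and 40.1% above. The falls were modest in size, with 2 of the 45 members lower by at least 2-fold, beside 17.3% of all genes tested. By the DESeq2 adjusted p in the authors' deposited table, 38 members were lower (21.0% of all genes with such a p) and 4 were higher (21.3%), and each of the 45 calls was the same. Scaling every library to the same total moved the median of all genes from 0.02 to 0.17 and that of the members to −0.37. Such scaling shifts all genes by nearly the same amount, so the members' median stayed −0.54 relative to that of all genes by construction.

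**Figure D1:**
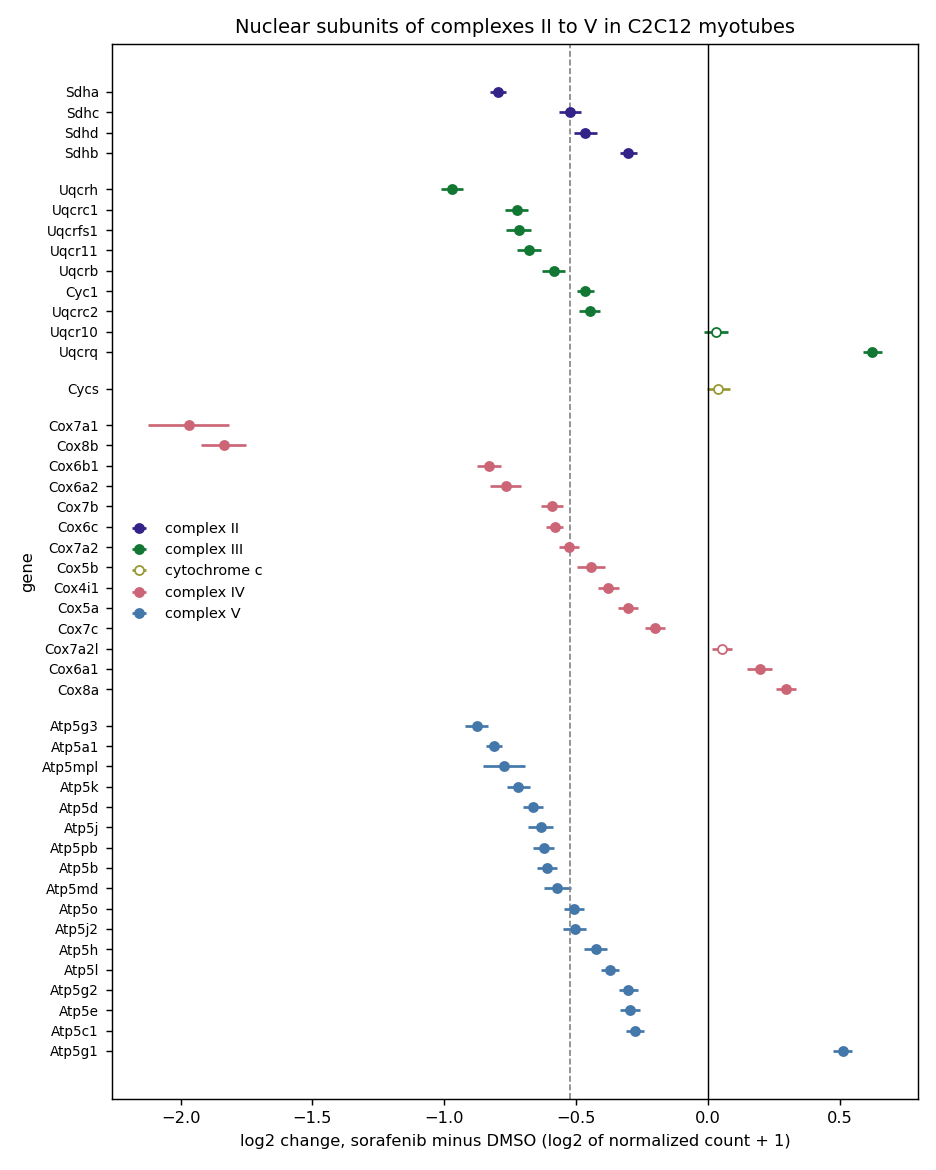
Log2 change (sorafenib minus DMSO, on log2 of the normalized count + 1) of each of the 45 members, by complex, with the standard error from limma as a bar and n = 3 libraries per group. Open circles did not pass the test and the dashed line is the members' median of −0.52. Cox7a1 and Cox8b lie farthest to the left, and Uqcrq, Atp5g1, Cox8a and Cox6a1 lie to the right of 0.

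Complex II, succinate dehydrogenase, oxidizes succinate in the citric acid cycle. All 4 of its genes were lower, with a median log2 change of −0.49. Sdha, the flavoprotein that binds succinate, gave 18834, 18374 and 18599 normalized counts in DMSO and 10535, 10717 and 10892 in sorafenib. It had the largest fall of the complex, 1.74-fold or −0.80 ± 0.03 on the log2 scale (SE, limma adjusted p = 3.17e-08), and the groups were far apart beside a spread of 230.1 in DMSO and 179 in sorafenib (SD, n = 3 each). Its partner in the catalytic arm, the iron-sulfur protein Sdhb, gave 6861, 6925 and 7022 normalized counts in DMSO and 5616, 5562 and 5694 in sorafenib. The change of Sdhb was the smallest of the complex at −0.30 ± 0.03 (limma adjusted p = 2.15e-05). Sdhc and Sdhd, which anchor the enzyme in the membrane and hold its ubiquinone site, changed by −0.52 ± 0.04 and −0.46 ± 0.04. Among the 4 assembly factors of complex II, 2 were lower and 2 did not pass. Sdhaf4 changed by −0.49 and Sdhaf2 by −0.12 on the log2 scale.

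Complex III, the cytochrome bc1 complex, moves electrons from ubiquinol to cytochrome c. The median log2 change of its 9 nuclear genes was −0.59, and 7 fell, 1 rose and 1 did not pass. Both nuclear carriers of its redox centres fell. The Rieske iron-sulfur protein Uqcrfs1 went from 7669.8 ± 447 to 4659 ± 92.3 normalized counts (SD, n = 3 each), −0.72 ± 0.05 on the log2 scale, with no overlap. Cytochrome c1 (Cyc1), which had the highest mean of the complex over all 6 libraries, though not within either group, gave 12092, 11809.9 and 12232 normalized counts in DMSO and 8607, 8649.6 and 8924 in sorafenib and changed by −0.46 ± 0.03 (limma adjusted p = 1.31e-06). The core proteins Uqcrc1 and Uqcrc2, relatives of mitochondrial processing peptidases, changed by −0.73 ± 0.04 and −0.45 ± 0.04.

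The 5 small supernumerary subunits of complex III did not move together. Uqcrh, the hinge protein next to cytochrome c1, gave 9753, 9321 and 10151 normalized counts in DMSO and 4834, 4976 and 5083 in sorafenib. Every sorafenib library was below every DMSO library, and the fall was 1.96-fold, or −0.97 ± 0.04 on the log2 scale (limma adjusted p = 5.59e-08). Uqcr11 and Uqcrb fell as well, with changes of −0.68 ± 0.04 and −0.59 ± 0.04. Uqcrq, which binds near the cytochrome b subunit, went the other way and gave 6819, 6639.9 and 6808 normalized counts in DMSO and 10798, 10137 and 10302 in sorafenib. All 3 sorafenib libraries were above all 3 DMSO libraries, a rise of 1.54-fold or 0.62 ± 0.04 (limma adjusted p = 3.60e-07). This was the largest rise among the 45 members. Uqcr10 gave 3509, 3514 and 3364 normalized counts in DMSO and 3722, 3402 and 3487 in sorafenib, and the groups overlapped. Its change of 0.03 ± 0.05 did not pass (limma adjusted p = 0.562), was −0.033 with quantile normalization and passed as higher at 0.19 with equal totals.

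Of the 6 assembly factors of complex III, 3 were lower and 3 did not pass. Uqcc1 and Uqcc2, which act on newly made cytochrome b, changed by −0.66 and −0.44 on the log2 scale.

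Cycs, the somatic cytochrome c, did not pass the test. It gave 6014, 5512 and 6092 normalized counts in DMSO and 5971, 5989 and 6134 in sorafenib. The groups overlapped, and the change was 0.04 ± 0.04 on the log2 scale (limma adjusted p = 0.435). With every library scaled to the same total, Cycs passed as higher, at 0.20.

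Complex IV, cytochrome c oxidase, carries out the reduction of oxygen. Its nuclear subunits surround a catalytic core encoded in mitochondrial DNA. Among its 14 nuclear genes, 11 fell, 2 rose and 1 did not pass, and the median log2 change was −0.48. Its members spread most widely, from −1.97 for Cox7a1 to 0.30 for Cox8a.

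The muscle isoforms Cox7a1 and Cox8b had the largest falls among the 45 members. Cox7a1 (ENSMUSG00000074218.4, chromosome 7, 30184144 to 30186078 on GRCm38 in GENCODE M21) gave 227, 205 and 239 normalized counts in DMSO and 47.2, 59.1 and 64.0 in sorafenib. The sorafenib libraries were all below the DMSO libraries, and the fall was 3.94-fold, or −1.97 ± 0.15 on the log2 scale (limma adjusted p = 2.78e-06). It was also the member with the fewest counts, and its coefficient of variation reached 15.2% in sorafenib. Cox8b (ENSMUSG00000025488.10, chromosome 7, 140898945 to 140900446) gave 732, 679 and 749 normalized counts in DMSO and 202, 210.0 and 190.1 in sorafenib. Its fall was 3.58-fold, or −1.84 ± 0.09 (limma adjusted p = 9.77e-08), again with no overlap. Cox6a2 (ENSMUSG00000030785.9, chromosome 7, 128205435 to 128206387) gave 2600.1, 2651 and 2887 normalized counts in DMSO and 1533, 1692 and 1557 in sorafenib. It fell 1.70-fold, or −0.77 ± 0.06 (limma adjusted p = 2.50e-06), a smaller step than those of Cox7a1 and Cox8b.

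Their widely expressed partners took different courses. Cox6a1 gave 6413, 6096 and 6243 normalized counts in DMSO and 7669, 7017 and 6830.4 in sorafenib, a rise of 0.20 ± 0.05 (limma adjusted p = 0.00459) with the groups separate. Cox8a gave 5531, 5399 and 5249 normalized counts in DMSO and 6821, 6501 and 6545 in sorafenib, also separate, a rise of 0.30 ± 0.04 (limma adjusted p = 7.07e-05). Cox7a2 gave 5541, 5281 and 5564 normalized counts in DMSO and 3721, 3759.5 and 3889 in sorafenib and fell 1.44-fold, or −0.53 ± 0.04 (limma adjusted p = 1.72e-06).

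The balance within each pair was measured as the log2 ratio of the muscle isoform to its partner in each library, with 1 added to each count. Apart from the added 1, this ratio does not depend on the scaling of whole libraries. For Cox8b to Cox8a the ratio went from −2.90 ± 0.09 in DMSO to −5.04 ± 0.08 in sorafenib (SD, n = 3 each), a 4.39-fold lower ratio. For Cox7a1 to Cox7a2 it went from −4.61 ± 0.07 in DMSO to −6.05 ± 0.20 in sorafenib, or 2.72-fold lower. For Cox6a2 to Cox6a1 it went from −1.21 ± 0.09 in DMSO to −2.17 ± 0.14 in sorafenib, or 1.95-fold lower. The sorafenib libraries lay below the DMSO libraries in all 3 pairs. The two-sided exact permutation p was 0.1 for each, the smallest that 3 against 3 libraries allow, and 0.1 after Benjamini-Hochberg adjustment over the 5 ratios examined, so the test cannot pass 0.05 at this size. Per length of transcript, Cox8b made up 16.8%, 16.1% and 17.9% in DMSO and 4.34%, 4.7% and 4.25% in sorafenib of the Cox8b and Cox8a level. On the same scale Cox7a1 made up 6.43%, 6.11% and 6.73% in DMSO and 2.08%, 2.57% and 2.69% in sorafenib. Cox6a2 made up 25.4%, 26.7% and 28% in DMSO and 14.4%, 16.8% and 16.1% in sorafenib. The widely expressed gene was the larger share of each pair in every library of both groups.

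**Figure D2:**
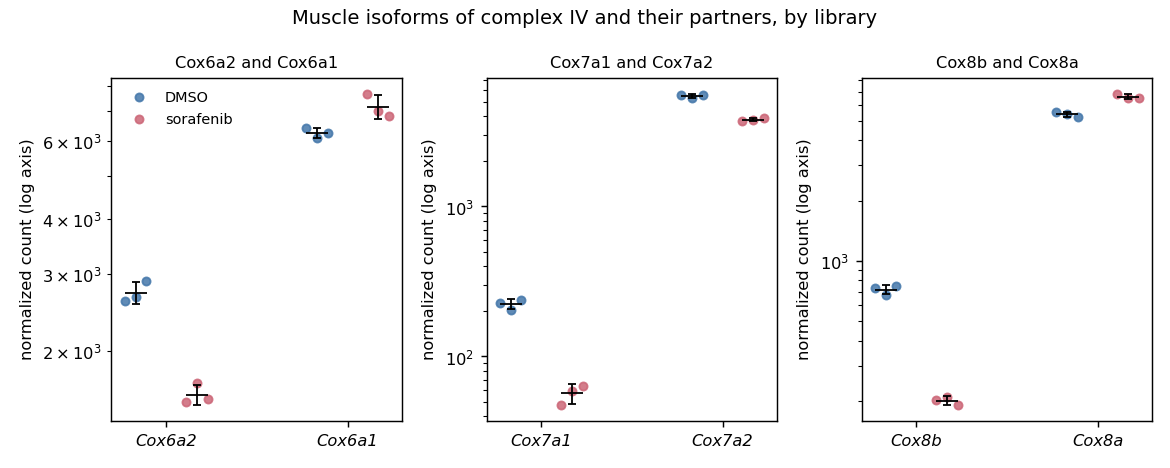
Normalized counts on a log axis for the muscle isoforms Cox6a2, Cox7a1 and Cox8b and their partners in each library. Points are replicates 1 to 3 from left to right, and bars are the mean ± SD of n = 3. Each muscle isoform is lower in sorafenib, while Cox6a1 and Cox8a are higher and Cox7a2 is lower.

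All 10 myotube markers were also lower in sorafenib, each by at least 2-fold, with a median fall of 3.88-fold, beside falls of 1.70-fold to 3.94-fold in the 3 isoforms. The part of that loss in the change of the isoforms was not tested. Cox7a1 and Cox8b are also abundant in brown fat. Ucp1, the defining protein of brown fat, averaged 1.22 normalized counts in sorafenib and was listed at 0 in DMSO, and all 5 general adipocyte markers were below the minimum. Of the other brown fat markers, Dio2 was lower, Elovl3 was higher and Cidea was below the minimum. The 4 brown fat markers summed to 5311 to 5984 normalized counts per DMSO library, against 704 to 749.7 after sorafenib, nearly all of it Dio2.

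The promoters of the pairs with the largest shifts are shown because their genes share a complex and a position in it yet changed differently. The stretches are the reference sequence from RefSeq (GRCm38.p6) that lies up to 250 bases upstream of the annotated start and outside the gene in GENCODE M21, written 5′ to 3′ on the gene's strand. Capitals mark E-boxes (CANNTG, a general pattern that includes sites of myogenic factors such as MyoD), the only one of 5 motifs searched that was found in these 4.
Cox7a1: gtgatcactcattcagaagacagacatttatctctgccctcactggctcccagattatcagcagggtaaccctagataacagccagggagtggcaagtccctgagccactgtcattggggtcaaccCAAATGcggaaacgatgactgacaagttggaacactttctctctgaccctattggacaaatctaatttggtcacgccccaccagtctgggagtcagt
Cox7a2: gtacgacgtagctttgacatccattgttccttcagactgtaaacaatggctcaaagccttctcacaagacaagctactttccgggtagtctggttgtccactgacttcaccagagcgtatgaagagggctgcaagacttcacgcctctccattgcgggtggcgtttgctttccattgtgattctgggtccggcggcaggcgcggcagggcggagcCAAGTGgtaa
Cox8b: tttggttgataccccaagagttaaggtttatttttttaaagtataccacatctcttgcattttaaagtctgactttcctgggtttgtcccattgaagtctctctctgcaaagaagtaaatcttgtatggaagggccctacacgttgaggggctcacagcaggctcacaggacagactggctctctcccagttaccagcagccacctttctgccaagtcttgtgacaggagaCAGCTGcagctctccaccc
Cox8a: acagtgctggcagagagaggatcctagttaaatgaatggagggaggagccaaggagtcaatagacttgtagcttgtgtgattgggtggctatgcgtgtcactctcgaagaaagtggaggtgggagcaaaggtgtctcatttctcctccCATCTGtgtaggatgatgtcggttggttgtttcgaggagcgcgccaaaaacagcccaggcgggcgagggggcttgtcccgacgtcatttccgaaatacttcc
They lie at chr7:30183921-30184143 (plus strand), chr9:79759879-79760103 (minus strand), chr7:140900447-140900696 (minus strand) and chr19:7217617-7217866 (minus strand). Each of the 4 stretches held 1 E-box, in the isoforms that fell most and in their partners. The middle letters of the box differed, with CAAATG in Cox7a1, CAAGTG in Cox7a2, CAGCTG in Cox8b and CATCTG in Cox8a. An E-box was present in 60.5% of 38 member promoters and in 66.2% of all 32851 promoters, so such a match is common. A match is a description of the letters and not a site of binding.

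Of the other subunits of complex IV, 7 fell and 1 did not pass. Cox4i1, the member of complex IV with the highest mean count and a subunit through which ATP regulates the enzyme, gave 22457, 20932 and 21818 normalized counts in DMSO and 17227, 16189.9 and 16765 in sorafenib and changed by −0.38 ± 0.04 (limma adjusted p = 1.76e-05). Cox6b1, which sits between the monomers of the dimeric enzyme, gave 9896, 9981 and 10520.0 normalized counts in DMSO and 5477, 5598 and 6023 in sorafenib. Its change of −0.83 ± 0.05 came next in complex IV after those of Cox7a1 and Cox8b (limma adjusted p = 2.51e-07). Cox7b, Cox6c, Cox5b and Cox5a changed by −0.59, −0.58, −0.44 and −0.30 on the log2 scale. Cox7c had the smallest called fall, −0.20 ± 0.04 (limma adjusted p = 9.33e-04), and did not pass with equal totals, where its change was −0.05. Cox7a2l, a relative of Cox7a2 that links complexes III and IV into supercomplexes, gave 10542, 10128 and 10751 normalized counts in DMSO and 10556, 10826 and 11256 in sorafenib. Its groups overlapped and its change of 0.05 ± 0.04 did not pass (limma adjusted p = 0.219), although it passed as higher at 0.15 with quantile normalization and 0.21 with equal totals.

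Assembly of complex IV needs many further proteins. Of 24 such genes tested, 12 fell, 6 rose and 6 did not pass, and their median log2 change was −0.16. The 6 higher genes were Sco2 (1.24) and Sco1 (0.27), which deliver copper, Cox10 (0.66), which makes heme for the enzyme, Cox18 (0.58), Surf1 (0.57) and Lrpprc (0.41), which stabilizes mitochondrial messenger RNA. Sco2 rose from 884 ± 61.0 to 2083 ± 38.6 normalized counts (SD, n = 3 each). Cox19, a small protein of copper handling, fell from 3482 ± 206 to 1916 ± 86.6 normalized counts (−0.86). Over complexes II to V, 19 of 40 assembly and accessory factors were lower and 8 were higher, beside 38 and 4 of the 45 subunit genes. The 40 include genes with other roles, such as Lrpprc and the inhibitor Atpif1. Of all genes tested, 37.8% were lower and 38.8% higher.

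Complex V, the ATP synthase, consists of the catalytic F1 head, a rotating ring of subunit c, a peripheral stalk and small accessory subunits in the membrane. Its 17 nuclear genes had a median log2 change of −0.57, and 16 fell while 1 rose. The 5 genes of the F1 head were all lower. Atp5b, the catalytic beta subunit, had the highest mean of the 45 members and gave 114282, 106378 and 112095 normalized counts in DMSO and 71022, 72666 and 74175 in sorafenib. It fell 1.53-fold, or −0.61 ± 0.04 on the log2 scale (limma adjusted p = 5.10e-07), but this did not pass with quantile normalization, where it was −0.04. Atp5a1, the alpha subunit, changed by −0.81 ± 0.03, and Atp5d, the delta subunit of the central stalk, by −0.66 ± 0.04. The gamma subunit Atp5c1 and the epsilon subunit Atp5e, which form the rest of that stalk, had smaller changes of −0.28 ± 0.04 and −0.30 ± 0.04. Levels per length of transcript spanned a wide range in the F1 head, from 11360.2 normalized counts per kb for Atp5c1 to 57891 for Atp5b in DMSO.

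All 4 genes of the peripheral stalk, which holds the head still against rotation, were lower within a narrow range. Atp5j changed by −0.63 ± 0.05, Atp5pb by −0.62 ± 0.04, Atp5o by −0.51 ± 0.04 and Atp5h by −0.43 ± 0.04. The 5 accessory membrane subunits were also lower. Atp5mpl, a very small proteolipid, changed by −0.77 ± 0.08, Atp5k, which helps ATP synthase form dimers, by −0.72 ± 0.04, Atp5md by −0.57 ± 0.05, Atp5j2 by −0.50 ± 0.04 and Atp5l by −0.37 ± 0.03. Atp5j shares 397 exon bases with Gabpa on the opposite strand in GENCODE M21, and Atp5pb shares 337 with Wdr77. The libraries were stranded, but no source used here states whether strand was used in counting, so reads of these overlaps are uncertain.

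Subunit c of the rotor ring is made from 3 genes whose proteins differ in the import sequence that is removed and share the same mature form. These genes moved apart. Atp5g3 gave 21689.5, 20625 and 22051 normalized counts in DMSO and 11114, 11732 and 12220.2 in sorafenib. It had the largest fall of complex V, 1.84-fold or −0.88 ± 0.04 (limma adjusted p = 1.47e-07). Atp5g2 gave 9884, 10319 and 9967 normalized counts in DMSO and 8020.1, 8439 and 8009 in sorafenib, a change of −0.30 ± 0.04 (limma adjusted p = 5.06e-05). Atp5g1 gave 6969.9, 6869.7 and 7293 normalized counts in DMSO and 10153, 9943 and 10005 in sorafenib. It alone among the genes of complex V rose, 1.42-fold or 0.51 ± 0.03 (limma adjusted p = 1.11e-06), and in all 3 genes the groups were separate. The log2 ratio of Atp5g1 to Atp5g3 went from −1.61 ± 0.03 in DMSO to −0.22 ± 0.08 in sorafenib (SD, n = 3 each), 2.62-fold higher. That of Atp5g2 to Atp5g3 went from −1.09 ± 0.08 in DMSO to −0.52 ± 0.08 in sorafenib, 1.49-fold higher. For both ratios the two-sided exact permutation p was 0.1, the smallest possible. These ratios use counts, and the transcript of Atp5g1 is longer, at 2675.5 bases against 718.5 for Atp5g3. Per length of transcript, Atp5g1 made up 8.10% of the Atp5g1 and Atp5g3 level in DMSO and 18.8% in sorafenib. The counts of the 3 genes summed to 38556 ± 749 in DMSO and 29878 ± 516 in sorafenib (SD, n = 3 each).

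**Figure D3:**
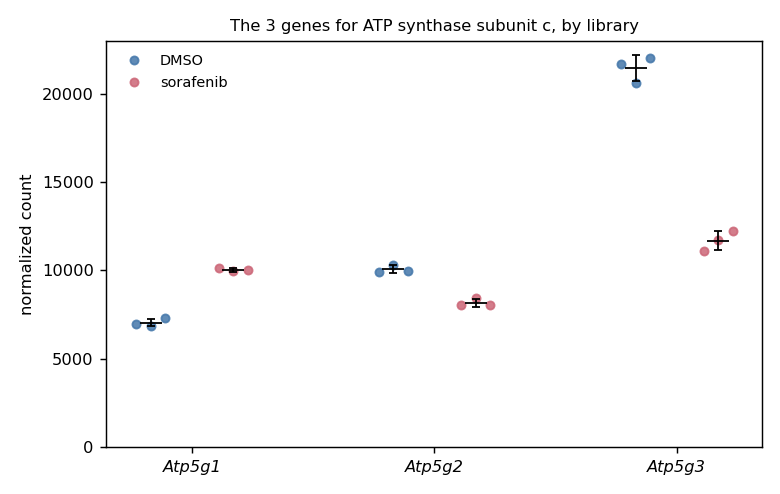
Normalized counts of the 3 subunit c genes of ATP synthase in each library, with the mean ± SD of n = 3 per group. Points are replicates 1 to 3 from left to right. Atp5g1 is higher in sorafenib, whereas Atp5g2 and Atp5g3 are lower.

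The promoters of the subunit c genes with opposite changes are shown next to each other, in the same form as those above, with E-boxes and, in Atp5g3, an ERR half-site (AAGGTCA, here TGACCTT on the opposite strand) in capitals.
Atp5g1: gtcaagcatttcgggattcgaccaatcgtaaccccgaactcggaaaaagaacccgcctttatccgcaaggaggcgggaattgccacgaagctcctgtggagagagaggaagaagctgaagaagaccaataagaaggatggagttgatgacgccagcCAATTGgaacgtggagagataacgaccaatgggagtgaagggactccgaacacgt
Atp5g3: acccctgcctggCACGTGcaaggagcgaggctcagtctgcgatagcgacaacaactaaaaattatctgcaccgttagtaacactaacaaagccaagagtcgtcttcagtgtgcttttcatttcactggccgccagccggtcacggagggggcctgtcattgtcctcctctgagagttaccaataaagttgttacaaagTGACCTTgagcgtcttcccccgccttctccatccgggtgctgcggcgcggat
They lie at chr11:96075671-96075881 (minus strand) and chr2:73911327-73911576 (minus strand). Over the 38 promoters found for 35 of the 45 members, with each motif searched on both strands, the ETS motif CCGGAAG of GABPA was present in 9, or 23.7%, beside 6.91% of all promoters. The NRF1 motif (GCGCA, any base, then GCGC) was present in 7, or 18.4%, beside 3.74% of all. Among the 32 promoters of lower members, the ETS motif was in 8 and the NRF1 motif in 6. Each was in 1 of the 3 promoters of higher members. The set of all promoters was not matched to the members for expression or base content. The ERR half-site was in 2 (5.26%, all promoters 4.08%) and the MEF2 letters (CTA and TAG with 4 bases between) in 1 (2.63%, all promoters 3.20%). Matches to different motifs may overlap each other.

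Among the 45, 4 members rose and 3 did not pass. Those that rose belong to complexes III (Uqcrq), IV (Cox6a1 and Cox8a) and V (Atp5g1), and none belongs to complex II. None reached 2-fold, beside 12.5% of all genes that rose by that much. With equal totals 37 members were lower and 7 higher, beside 31.7% and 46.6% of all genes, the added higher ones being Uqcr10, Cycs and Cox7a2l.

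**Figure D4:**
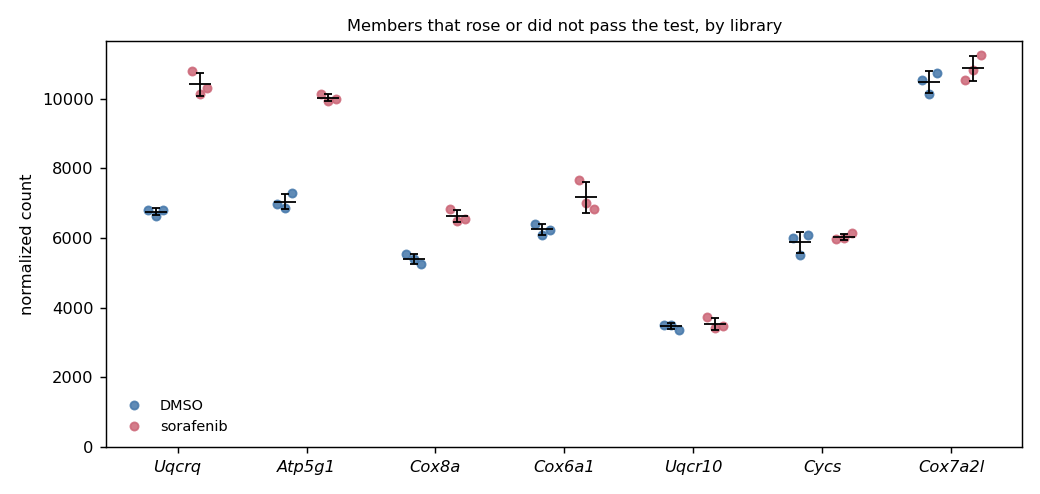
Normalized counts of the 4 members that rose (Uqcrq, Atp5g1, Cox8a and Cox6a1) and the 3 that did not pass (Uqcr10, Cycs and Cox7a2l) in each library, with the mean ± SD of n = 3 per group. Points are replicates 1 to 3 from left to right, and the groups overlap for the last 3 genes.

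The subunits that mitochondrial DNA contributes to the same complexes fell further than nearly all their nuclear partners. All 6 were lower, each at least 2-fold, with a median log2 change of −1.78. Of all genes tested, 17.3% were lower by at least 2-fold. Cytochrome b of complex III (mt-Cytb) gave 335830.0, 304354 and 331196 normalized counts in DMSO and 79256, 89191 and 95193 in sorafenib, a change of −1.88 ± 0.07 (limma adjusted p = 4.70e-08), and no nuclear gene of complex III changed as much. In complex IV the catalytic subunits mt-Co1, mt-Co2 and mt-Co3 changed by −1.66, −1.77 and −1.53, and of the 14 nuclear genes Cox7a1 and Cox8b had larger falls than all 3. In complex V mt-Atp6 and mt-Atp8 changed by −1.80 and −1.89, and none of the 17 nuclear genes fell as far. Transcripts of mitochondrial DNA took 3.76% to 4.10% of all normalized counts per DMSO library, against 1.75% to 1.97% after sorafenib. The difference between nuclear and mitochondrial genes was not tested, and for mitochondrial messengers the yield of poly(A) selection cannot be told apart from their level.

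**Figure D5:**
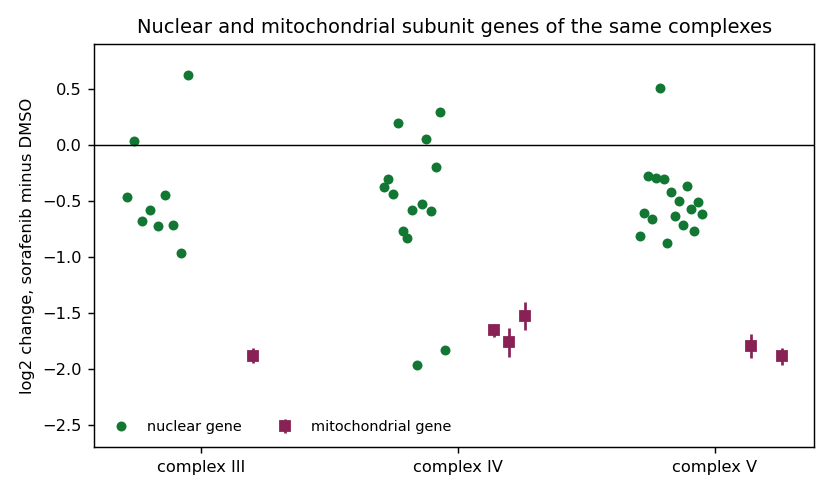
Log2 change (sorafenib minus DMSO) of nuclear (circles) and mitochondrial (squares, with the standard error from limma) subunit genes of complexes III, IV and V, n = 3 libraries per group. The 6 mitochondrial genes lie between −1.89 and −1.53, and of the nuclear genes Cox8b and Cox7a1 lie near them.

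Of 15 known regulators of respiratory chain genes tested, 6 were higher, 5 lower and 4 did not pass. Over all genes tested, 38.8% were higher and 37.8% lower, so this division is not particular to them. The coactivator PGC-1 alpha (Ppargc1a) rose from 274 ± 50.6 to 432 ± 14.7 normalized counts (SD, n = 3 each), 0.67 ± 0.14 on the log2 scale (limma adjusted p = 0.00157), and its relative Pprc1 by 0.87 ± 0.06. Gabpb1, Yy1 and the orphan receptor Esrrg were also higher, Esrrg from low counts (from 38.4 ± 9.36 to 391 ± 38.8 normalized counts). Nrf1, which binds the NRF1 motif, was higher at 0.46 ± 0.06. Gabpa, Esrra and Tfam did not pass, at 0.01 ± 0.03, −0.04 ± 0.04 and 0.28 ± 0.11. The lower genes were the muscle factors Mef2c (−3.84), Myod1 (−2.83), Mef2a (−1.26) and Mef2d (−0.88) and the receptor Esrrb (−2.18).

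Of 6 accessory factors of complex V, 2 were lower and 2 higher, near the shares of all genes tested (37.8% lower and 38.8% higher). Atpif1, which inhibits ATP hydrolysis by the enzyme, changed by −0.65 ± 0.04 and the assembly chaperone Atpaf2 by 0.50 ± 0.06. Among 6 carriers and channels for ATP, ADP and phosphate, 5 were lower and 1 was higher, beside the same shares of all genes. The muscle ATP/ADP carrier Slc25a4 changed by −0.52 ± 0.03 and the outer membrane channel Vdac1 by −0.47 ± 0.04, whereas Vdac3 was higher at 0.24 ± 0.04.

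The 6 rows with matching names that were below the minimum were Cox4i2, Cox6b2, Cox6c2, Cox7b2, Cox8c and a second entry named Atp5o. The highest value of any of them in a library was 9.64 normalized counts (Cox6c2), and Cox8c and the second Atp5o entry were listed at 0 in all 6. The lowest value of a member was 47.2 (Cox7a1). The deposited rows of these families with -ps in the name, for pseudogene, were small beside their parent genes. They reached at most 0.586% of the parent's DMSO mean for the 3 that exceeded 10 (Cox5b-ps, Atp5pb-ps and Cox7c-ps1). Pseudogenes under other names were not examined.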

How the data were processed

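The deposited table holds, per library and gene, a signal value, which the authors obtained by normalizing a count with DESeq2 (per the file headers). The submitters' processing notes also name bcl2fastq and GRCm38.p6, without tool versions. In all 55356 rows the deposited base mean equals the average of the 6 library values, within a relative tolerance of 1e-06, so the values are not raw counts. The library columns are headed with the words quant sf, per the file headers, as in the name of the file that Salmon writes, but the tool, its version and its settings are not stated in the sources used here. The authors' deposited log2 fold change, its standard error, a Wald score, and the p-value with its adjusted form came from DESeq2, per the file headers, and were read only for comparison. RNA was poly(A)-selected and libraries were stranded, per the labels' protocols.

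Per library, 60.2% to 69.2% of low values came out as whole reads (tolerance 0.02), so whole reads could not be recovered and no count model was fitted. Genes reaching 10 normalized counts in 3 or more libraries were tested with limma 3.58.1 (mean-variance trend, robust empirical Bayes) in R 4.3.3 on log2(normalized count + 1), with group as the only term. This scale understates changes of low genes. The limma step was tested on simulated data. Ratios of isoforms were tested by exact permutation over libraries (scipy 1.17.1). Tables and plots were made in Python 3.11.15 (pandas 2.3.3, matplotlib 3.10.9). Members, gene lists and the rule for named genes (all members, muscle isoforms and subunit c genes in full, the 2 smallest p and any minority direction in each list of related genes) were chosen with earlier results of these data known. The planned ratios of Cox4i2 to Cox4i1 and of Cox6b2 to Cox6b1 were not computed, since Cox4i2 and Cox6b2 did not reach the minimum.

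Positions were taken by identifier from GENCODE M21 (GRCm38), because only 3.34% of 52080 shared identifiers have deposited positions within 1 base of GRCm38. Length is the median over principal protein-coding transcripts of a gene. Alternatives were quantile normalization, equal totals, no filter, pseudocounts of 0.1 and 10, a higher minimum (50), a block on replicate number, and omission of each library in turn.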

Additional observations from a re-analysis of the deposited data

How the results depend on the processing

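In the alternatives run, 37 or 38 of the 45 members were lower, and 38 were whichever library was left out. The median log2 change of the members was −0.48 under quantile normalization, −0.37 under equal totals, and between −0.54 and −0.49 without 1 library. Members called higher numbered 7 with equal totals, 5 with quantile normalization and 4 whichever library was left out. The falls of Atp5b (−0.04 with quantile normalization) and Cox7c (−0.05 with equal totals) did not pass there, and Cox7a2l passed as higher at 0.15 with quantile normalization and 0.21 with equal totals, as did Uqcr10 (0.19) and Cycs (0.20) with equal totals. Among changes that had not passed, the direction reversed for Uqcr10 (−0.033 with quantile normalization) and, when 1 library was left out, for Uqcr10 (range −0.0072 to 0.0577, negative without sorafenib replicate 1) and Cycs (range −0.0054 to 0.0667, negative without DMSO replicate 2). The cause of these changes was not tested, beyond the shift of the median that equal totals bring by construction. The isoform ratios kept their direction in every alternative run, and a filter on low values does not enter them. Without 1 library the ranges were −2.18 to −2.08 for Cox8b to Cox8a, −1.51 to −1.33 for Cox7a1 to Cox7a2, −1.02 to −0.89 for Cox6a2 to Cox6a1, 1.34 to 1.42 for Atp5g1 to Atp5g3 and 0.55 to 0.62 for Atp5g2 to Atp5g3. With the replicate number as a block, 38 members were lower and 4 higher, and over all genes 6231 were lower and 6404 higher. Libraries of the same number deviated together only weakly, with correlations of 0.022 to 0.077, beside −0.069 to 0.025 for different numbers. Only DMSO replicate 3 correlated best with another number, at 0.025 against 0.022. The sources used here do not state that the numbers pair the samples, so the block served as an alternative only. With equal totals 5271 genes were lower and 7740 higher over all, against 6297 and 6453. Depth limits the counts of Cox7a1 most, at 47.2 to 64.0 normalized counts per sorafenib library.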

Other observations

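The 3 muscle isoforms of complex IV all lie on chromosome 7, which holds 5 of the 45 members, while the members as a whole lie on 19 chromosomes. Cox7a1 and Cox6b1, which encode different subunits of complex IV, are neighbours there in the family, with 430783 bases between the end of the first and the start of the second on GRCm38 in GENCODE M21. Cox7a1 changed by −1.97 ± 0.15 and Cox6b1 by −0.83 ± 0.05 on the log2 scale. Whether their positions bear on the changes was not tested.

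Across the 45, the Spearman correlation of the log2 DMSO mean with the log2 change was −0.13 and Pearson's was 0.32, and across the 42 without the muscle isoforms they were −0.36 and −0.34. All points come from the same 6 libraries, and genes are not independent replicates. Per length of transcript, the members of complex II ran from 2993 normalized counts per kb (Sdhc) to 6414 (Sdha) in DMSO, and in sorafenib Sdhb, at 4925, stood above Sdha, at 3695.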
